A study of Mus musculus with 9 samples.

Results

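Transcript levels of 10 genes of ferroptosis defence and antioxidant metabolism were compared between intestinal epithelial cells of newborn mouse pups with 3 Tfr1 genotypes. The genes are Gpx4, Gpx2, Aifm2, Slc7a11, Gclc, Gclm, Acsl4, Lpcat3, Hmox1 and Nqo1. They were found by symbol among 34945 probe sets that carry 1 gene symbol, and all 10 were measured, by 18 probe sets. For a gene with several probe sets the brightest on average was taken, so they are 10 of 18193 genes tested. RNA was hybridised to 1-colour Affymetrix arrays, with 3 arrays in each group, and all pups were taken on postnatal day 0 without treatment. Rescue pups were Tfr1 IEC-KO;ROSA26 Tfr1R654A/+, that is, the epithelial knockout with a Tfr1 that carries R654A placed at ROSA26. Knockout pups were Tfr1 IEC-KO, and control pups were Tfr1fl/fl. Tfr1, the product of Tfrc, takes transferrin-bound iron into cells. The Cre line behind the knockout, the sex of the pups and whether an array holds 1 pup or a pool are not stated in the labels, so p-values measure the spread between arrays, which may be technical.

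Ferroptosis is a form of cell death driven by iron-dependent peroxidation of phospholipids that carry polyunsaturated fatty acids. GPX4 reduces such peroxides with glutathione, which cells make from imported cystine, and AIFM2, also called FSP1, limits them without glutathione by keeping ubiquinone reduced. ACSL4 and LPCAT3 load polyunsaturated fatty acids into phospholipids and so supply the substrate. Many genes of glutathione synthesis and quinone reduction are driven by the transcription factor NRF2, which binds antioxidant response elements.

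Gclm holds an antioxidant response core in its start region. This gene and the 3 that passed the test below are shown by the 250 bases before an annotated start. These come from RefSeq on GRCm38.p6, in which 8 of the 10 genes had an entry (11 windows), all but Hmox1 and Gclc. The capitals mark matches to TGACNNNGC or TGAGNNNGC on either strand, and all other bases are in lower case.
Nqo1 (chr8:107403206-107403455, minus strand): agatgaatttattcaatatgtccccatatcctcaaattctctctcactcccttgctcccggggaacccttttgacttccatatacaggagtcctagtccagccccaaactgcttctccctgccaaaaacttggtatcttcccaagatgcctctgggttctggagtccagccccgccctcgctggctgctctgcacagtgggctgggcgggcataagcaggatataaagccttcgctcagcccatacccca
Aifm2 (chr10:61720399-61720648, plus strand): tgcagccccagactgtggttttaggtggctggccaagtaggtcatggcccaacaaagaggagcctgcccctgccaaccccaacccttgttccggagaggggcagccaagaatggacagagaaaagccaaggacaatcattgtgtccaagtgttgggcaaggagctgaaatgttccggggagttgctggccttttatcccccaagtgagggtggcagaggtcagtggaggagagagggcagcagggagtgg
Gpx2 (chr12:76795555-76795804, minus strand): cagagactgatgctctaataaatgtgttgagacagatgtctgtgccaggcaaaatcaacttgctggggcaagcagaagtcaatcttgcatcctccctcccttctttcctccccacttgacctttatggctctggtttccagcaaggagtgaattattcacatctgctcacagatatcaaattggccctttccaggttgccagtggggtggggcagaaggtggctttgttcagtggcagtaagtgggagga
Gclm (chr3:122245307-122245556, plus strand): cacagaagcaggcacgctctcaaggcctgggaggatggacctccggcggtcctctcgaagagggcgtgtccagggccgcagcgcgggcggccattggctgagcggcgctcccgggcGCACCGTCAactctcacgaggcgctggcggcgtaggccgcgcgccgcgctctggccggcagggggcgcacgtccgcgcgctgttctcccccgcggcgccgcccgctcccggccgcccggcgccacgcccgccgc
The Gclm match is to TGACNNNGC on the opposite strand and begins 134 bases before the start. TGAGNNNGC was matched on the opposite strand in Acsl4, beginning 219 and 55 bases before the start, and in Slc7a11, beginning 97 bases before it. Of all 32851 windows in the table, 10.2% held TGACNNNGC, 14.4% held TGAGNNNGC and 23% held either, against 3 of the 11 windows of these genes. A match describes letters in the window and is not a measured binding site, and a gene without a match can hold one outside the 250 bases. An annotated start need not be the outer end of the gene. The Aifm2 window lies inside the annotated gene (61715263 to 61739260), as do those of Slc7a11 and Acsl4. The Gclm window reaches past the first base of its gene (122245487).

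Epithelial transcripts were present, with 0 of 15 epithelial markers among the dimmest 40% of genes on any array. This does not tell cell types apart, since 0 of 12 fibroblast markers were that dim in knockout replicate 1. The arrays also held signal of other cells. The mean of 12 fibroblast markers was 8.12, 7.72 and 7.78 (log2) in rescue replicates 1, 2 and 3, 10.62, 10.01 and 7.63 in knockout replicates 1, 2 and 3, and 6.94 to 7.55 in control arrays. Smooth muscle markers did the same, with means of 9.72 and 8.42 in knockout replicates 1 and 2 and 5.73 to 6.77 on the other arrays. The mean of 12 leukocyte markers was 6.62 to 6.83 in rescue arrays, 8.31, 8.16 and 7.10 in knockout replicates 1, 2 and 3, and 6.31 to 6.68 in control arrays, so that all knockout arrays lay above all others. The mean of the 15 epithelial markers did the same, at 11.87 to 12 in rescue arrays, 12.08 to 12.19 in knockout arrays and 11.74 to 11.79 in control arrays. Between knockout and control 5 of 12 leukocyte markers were called higher and 1 lower, 3 of 12 fibroblast and 2 of 8 endothelial markers higher and 0 lower, and 7 of 15 epithelial markers higher and 2 lower. A mean of 6 pancreas markers was raised in rescue replicate 3 (8.60) and knockout replicate 2 (8.93), against 6.28 to 7.22 elsewhere. Xist, from the inactive X, read 6.45 to 6.83 in rescue arrays, 12.02 to 12.75 in knockout arrays and 12.10 to 12.31 in control arrays, while the Y-linked Eif2s3y read 9.36 to 9.70 in rescue arrays and at most 2.88 elsewhere, so sex and genotype cannot be told apart in either comparison with rescue. Tfrc itself read 10.91, 10.22 and 11.11 in rescue arrays, 10.76, 11.16 and 9.07 in knockout arrays, and 10.21, 10.78 and 9.88 in control arrays by its brightest probe set, which therefore does not show the deletion. Another 2 probe sets with its symbol averaged 10.85 and 8.83 in rescue arrays, 5.88 and 4.31 in knockout arrays and 6.15 and 4.67 in control arrays. Between knockout and control these changed by -0.28 (adjusted p = 0.28) and -0.36 (0.13) in a limma fit of all 34945 probe sets. Neither was called, so the deletion is taken from the labels.

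The comparison of knockout with control asks whether these defences move in epithelium labelled as Tfr1 knockout. Gpx2, the glutathione peroxidase typical of gut epithelium, rose 2.51-fold in knockout cells. Nqo1, a quinone reductase, fell 2.41-fold and Aifm2 fell 1.73-fold. Gpx4, Slc7a11, Gclc, Gclm, Acsl4, Lpcat3 and Hmox1 did not pass. That makes 1 of 10 higher, where 5.29% of all 18193 genes were higher, and 2 of 10 lower, where 8.77% were lower, at an adjusted p under 0.05 (limma, Benjamini-Hochberg over all genes, 14.1% called in all). Knockout and control arrays did not overlap for 4 of the 10 genes, Aifm2, Nqo1, Gclc and Gpx2, beside 32.4% of all genes. The unadjusted p was under 0.05 for 5 of the 10. The share of all genes at that level was not counted in any comparison, so such counts say nothing of the genes as a set. The median change of the 10 genes was -0.35 (log2), against -0.04 for all genes.

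**Figure D1:**
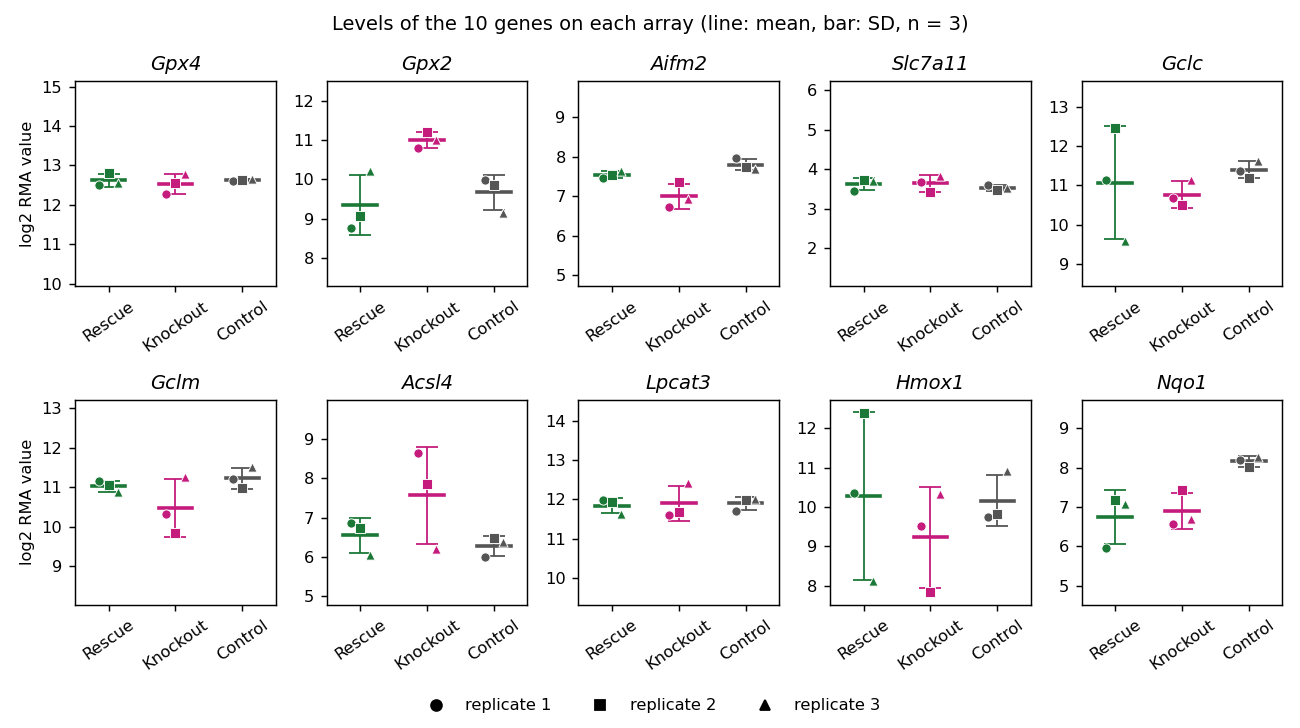
Deposited log2 RMA values (vertical axis; every panel spans the same number of log2 units) of the 10 genes on the rescue, knockout and control arrays, with symbols for replicates 1 to 3, a line for the mean and a bar for the SD (n = 3). Knockout arrays lie above all others for Gpx2, control arrays lie above all others for Nqo1 and Aifm2, and rescue arrays spread widely for Hmox1 and Gclc.

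Among the peroxide-reducing enzymes, Gpx2 passed the test and Gpx4 did not. Gpx2 read 8.78, 9.07 and 10.21 in rescue arrays, 10.80, 11.20 and 11.00 in knockout arrays, and 9.99, 9.86 and 9.16 in control arrays. All knockout arrays thus lay above all rescue and all control arrays. Its change in knockout against control was 1.33 ± 0.36 (log2, limma SE, adjusted p = 0.045). The call is close to the threshold: it was lost without control replicate 1 (adjusted p = 0.081), 2 (0.099) or 3 (0.15), knockout replicate 1 (0.080) or 2 (0.11), or rescue replicate 2 (0.065), with the replicate number as a block (0.075), under a fibroblast covariate (0.12) and with knockout replicates 1 and 2 left out together (0.16), while the change stayed between 1.07 and 1.49 in all 9 limma fits without 1 array. Gpx4 read 12.51, 12.80 and 12.55 in rescue arrays, 12.28, 12.56 and 12.79 in knockout arrays, and 12.60, 12.62 and 12.65 in control arrays. Knockout values of Gpx4 lay on both sides of the narrow control range, and its change was -0.08 with a 95% interval of -0.40 to 0.24.

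Aifm2 fell in knockout cells and was intermediate in rescue cells. It read 7.48, 7.53 and 7.64 in rescue arrays, 6.73, 7.35 and 6.93 in knockout arrays, and 7.96, 7.73 and 7.70 in control arrays, so that none of the 3 groups overlapped. The change in knockout against control was -0.79 ± 0.16 (adjusted p = 0.015). The other 2 probe sets of Aifm2 fell as well, by 0.82 (adjusted p = 0.015) and 0.42 (adjusted p = 0.037) in a limma fit of all 34945 probe sets. The call was lost without control replicate 1 (adjusted p = 0.063) and when the fibroblast mean was a covariate (0.087). With knockout replicates 1 and 2 left out together, so that the fibroblast-rich arrays were gone, the change was -0.87 (adjusted p = 0.013), the lone knockout array being taken to vary like the other groups. That array still had a leukocyte mean of 7.10 and an epithelial mean of 12.19, above all control arrays, and the part of these markers in the changes of Aifm2, Gpx2 and Nqo1 was not tested.

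Glutathione synthesis begins with cystine import. Slc7a11, the transport subunit of the cystine and glutamate exchanger, read 3.44, 3.72 and 3.69 in rescue arrays, 3.67, 3.42 and 3.84 in knockout arrays, and 3.61, 3.46 and 3.52 in control arrays. Those values belong to the dimmest 6.61%, 6.56% and 6.06% of genes in rescue, knockout and control, so no fold is given.

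Glutamate-cysteine ligase makes the first intermediate from cysteine. Its modifier subunit gene Gclm read 11.15, 11.05 and 10.87 in rescue arrays, 10.31, 9.83 and 11.26 in knockout arrays, and 11.22, 10.98 and 11.51 in control arrays. It was low in knockout replicates 1 and 2 and within the control range in replicate 3. Its change was -0.77 ± 0.32 (unadjusted p = 0.041, adjusted p = 0.15), passed without knockout replicate 3 (-1.16, adjusted p = 0.0037) and was 0.025 with knockout replicates 1 and 2 left out together. The catalytic subunit gene Gclc read 11.15, 12.46 and 9.59 in rescue arrays, 10.68, 10.50 and 11.14 in knockout arrays, and 11.38, 11.19 and 11.63 in control arrays. Knockout and control did not overlap for Gclc, yet its change of -0.63 ± 0.59 (adjusted p = 0.54) did not pass. Fitted on the knockout and control arrays alone, the same change had an SE of 0.20 (adjusted p = 0.11).

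Of the enzymes that load polyunsaturated fatty acids, neither passed. Acsl4 read 6.87, 6.74 and 6.04 in rescue arrays, 8.63, 7.85 and 6.20 in knockout arrays, and 5.99, 6.48 and 6.38 in control arrays. It was high in knockout replicates 1 and 2 and within the control range in replicate 3. Its change was 1.28 ± 0.53 (unadjusted p = 0.042, adjusted p = 0.15). Without knockout replicate 3 the change was 1.96 (adjusted p = 0.0028), and with knockout replicates 1 and 2 left out together it was -0.079 (adjusted p = 0.91). Acsl4 thus was high on the 2 arrays whose fibroblast and smooth muscle markers were high, and its change was -0.37 under the fibroblast covariate. More cells of a type and more RNA per cell cannot be told apart in such mixed samples. Acsl4 lies on the X chromosome, which bears on the comparisons with rescue, where sex and genotype cannot be told apart. Lpcat3, which inserts these fatty acids into phospholipids, read 11.98, 11.93 and 11.63 in rescue arrays, 11.60, 11.69 and 12.42 in knockout arrays, and 11.72, 11.98 and 12.02 in control arrays. The groups overlapped, and the change of Lpcat3 was -0.0015 with a 95% interval of -0.49 to 0.49.

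**Figure D2:**
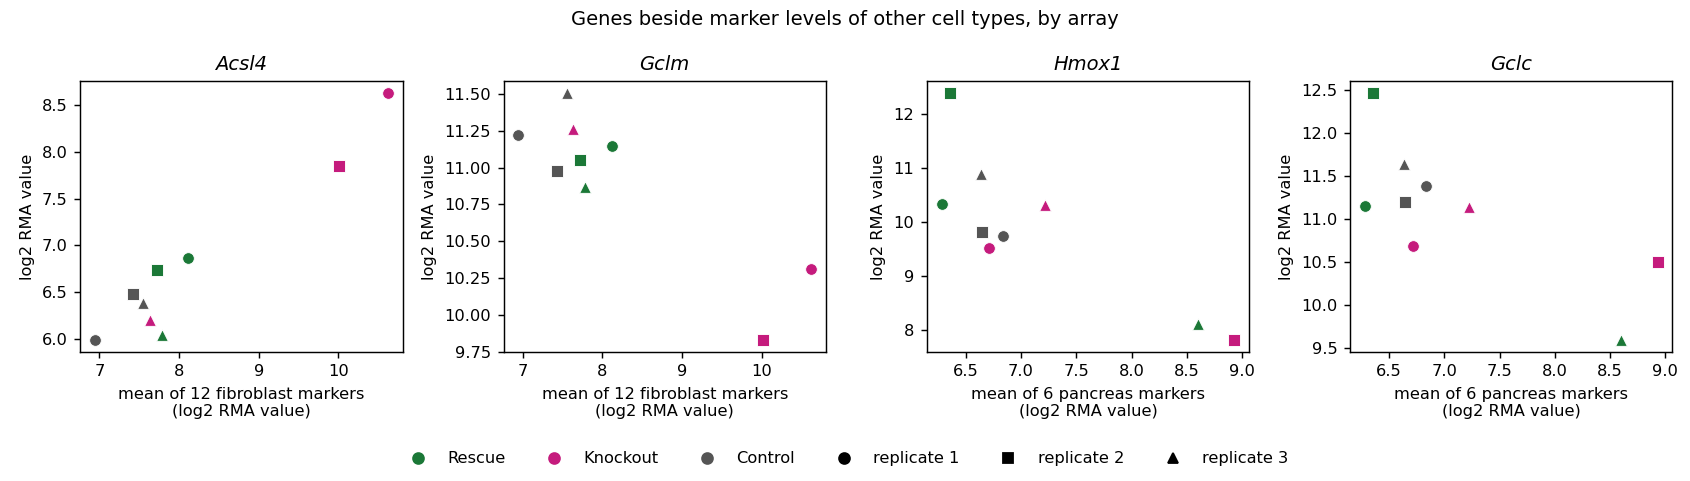
Log2 RMA value of Acsl4 and Gclm against the mean of 12 fibroblast markers, and of Hmox1 and Gclc against the mean of 6 pancreas markers, with 1 point per array coloured by group (rescue, knockout, control) and shaped by replicate. Knockout replicates 1 and 2 stand alone at fibroblast means of 10.62 and 10.01, with the highest Acsl4 and the lowest Gclm, and knockout replicate 2 and rescue replicate 3 stand alone on the pancreas axis, with the lowest Hmox1.

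Nqo1 fell in knockout cells. It read 5.96, 7.18 and 7.08 in rescue arrays, 6.57, 7.42 and 6.69 in knockout arrays, and 8.20, 8.01 and 8.27 in control arrays. All control arrays lay above all others. The change in knockout against control was -1.27 ± 0.34 (adjusted p = 0.041). The call was lost without control replicate 1 (adjusted p = 0.12), 2 (0.096) or 3 (0.13), knockout replicate 1 (0.12) or 3 (0.055), or rescue replicate 3 (0.052), with the fibroblast covariate (0.16) and with knockout replicates 1 and 2 left out together (0.071), and the change of Nqo1 lay between -1.53 and -1.10 in the 9 limma fits without 1 array.

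Hmox1 encodes haem oxygenase 1, which opens haem and releases its iron. It read 10.34, 12.39 and 8.11 in rescue arrays, 9.52, 7.83 and 10.33 in knockout arrays, and 9.75, 9.82 and 10.90 in control arrays. The groups overlapped in every comparison, and the change in knockout against control was -0.93 with a 95% interval of -3.25 to 1.39 (adjusted p = 0.61). Hmox1 spanned 4.28 log2 units among the rescue arrays, a 19.4-fold range, and 7 of the 18193 genes had a larger SD there. Gclc spanned 2.87 log2 units (7.29-fold) among the same arrays, with 28 genes at a larger SD. Both genes were highest in rescue replicate 2 and lowest of all rescue arrays in replicate 3. The 2 arrays with the least Hmox1, rescue replicate 3 and knockout replicate 2, also had the least Gclc and were the 2 arrays with high pancreas markers. The part of these markers in the values was not tested. On those 2 arrays 0 of the 6 pancreas markers were in the dimmest 40% of genes, against 2 or 3 on the others.

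Setting rescue beside knockout asks what the added R654A receptor does to these genes. Of the 10 genes 0 were higher and 0 lower by limma's adjusted threshold, where 1.23% of all genes were higher and 1.08% lower (2.31% in all), and 2 had an unadjusted p under 0.05. These were Gpx2 and Aifm2, which were also the 2 genes whose rescue and knockout arrays did not overlap, where 18.1% of all genes did not. Gpx2 averaged 9.35 in rescue and 11.00 in knockout, a change of -1.65 ± 0.36 (adjusted p = 0.059), and it passed without knockout replicate 3 (adjusted p = 0.036) or rescue replicate 3 (0.027). Aifm2 averaged 7.55 in rescue and 7.01 in knockout, a change of 0.54 ± 0.16 (adjusted p = 0.12), and it passed without knockout replicate 2 (0.72, adjusted p = 0.047). Acsl4 changed by -1.01 ± 0.53 (adjusted p = 0.34) and Gclm by 0.56 ± 0.32 (adjusted p = 0.39). Both of these passed without knockout replicate 3, at -1.69 (adjusted p = 0.0094) for Acsl4 and 0.95 (adjusted p = 0.015) for Gclm. That fit keeps only the fibroblast-rich knockout replicates 1 and 2. With those left out together the changes were 0.35 for Acsl4 and -0.24 for Gclm, and Acsl4 was 0.20 with the fibroblast covariate. Nqo1 averaged 6.74 in rescue and 6.89 in knockout, and the 95% interval of its change was -0.92 to 0.61.

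The comparison of rescue with control asks how far rescue cells differ from normal ones. Again 0 of the 10 genes passed limma's adjusted threshold, where 0.126% of all genes did, and 1 had an unadjusted p under 0.05. That gene was Nqo1, which averaged 6.74 in rescue and 8.16 in control, a change of -1.42 ± 0.34 (unadjusted p = 0.0025, adjusted p = 0.24). Nqo1 and Aifm2 were the 2 genes whose rescue and control arrays did not overlap, where 16.6% of all genes did not. Aifm2 changed by -0.25 ± 0.16 (adjusted p = 0.98). The intervals of Gpx4 (-0.32 to 0.32) and Lpcat3 (-0.55 to 0.43) were narrow beside that of Hmox1 (-2.19 to 2.44), whose change was -0.93 without rescue replicate 2 and 1.21 without rescue replicate 3. The 3 comparisons share arrays, so their changes are not independent.

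**Figure D3:**
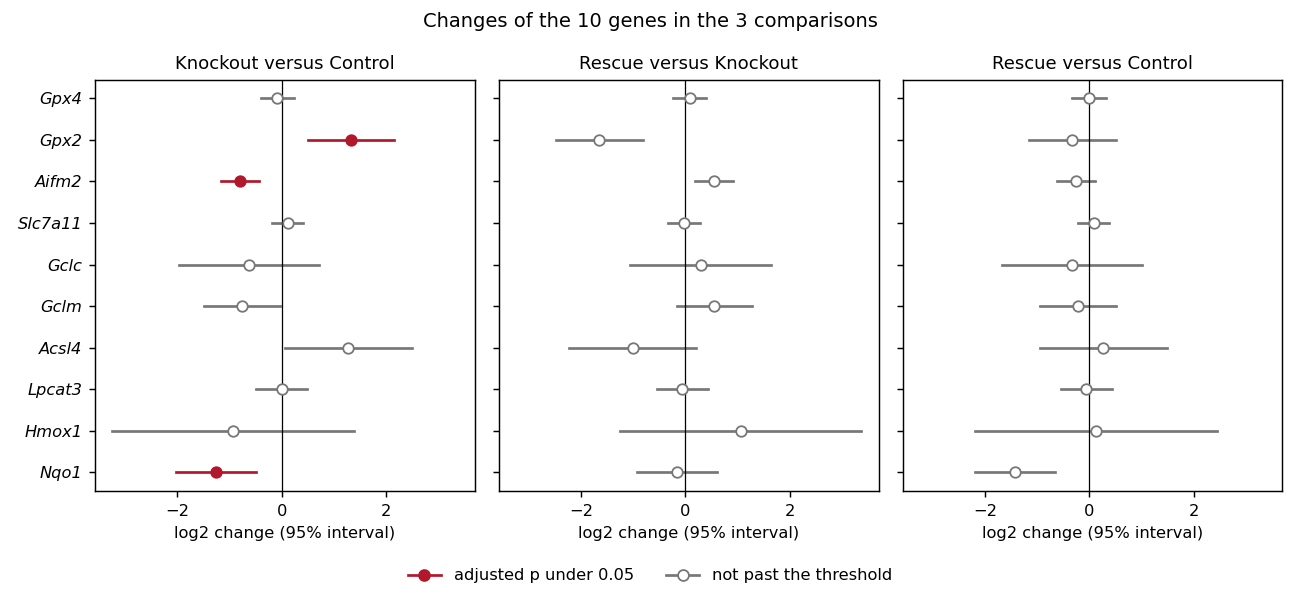
Log2 changes (horizontal axis) of the 10 genes with 95% limma intervals for knockout versus control, rescue versus knockout and rescue versus control; filled red points passed an adjusted p of 0.05. Gpx2, Aifm2 and Nqo1 passed between knockout and control, and no gene passed in the other comparisons.

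The genes with the closest profiles over the 9 arrays were read for the 3 called genes by Pearson's r, as a description of 9 arrays that share their groups. They were Ncln (0.986), Fam210a (0.985) and Cluh (0.978) for Aifm2. They were Mtor (0.975), Neurl4 (0.957) and Mrfap1 (0.953) for Nqo1. For Gpx2 they were Mrps6 (0.948), Cd27 (0.937) and Kif3a (0.931).

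Related genes were read from 9 lists with 123 symbols, of which 112 genes were measured. The lists were chosen with earlier results of these data known. Between knockout and control 14.1% of all genes were called, and 2401 of 10916 without the dimmest 40% of genes. Of the 112 list genes 9 were higher and 20 lower, or 25.9% called. The part of expression level in that share was not tested. The median change of the list genes was -0.18 (log2) beside -0.04 for all genes. Of these 29, 13 passed in all 9 fits without 1 array, 17 with the fibroblast covariate and 17 with knockout replicates 1 and 2 left out together. The 11 that missed the threshold under both of these settings include Glrx2, Prdx3, Msra, Coq9, Eefsec, Sephs2, Lrp2, Scly and Hmox2. Some of these genes missed although the change hardly moved. On all arrays, without both knockout replicates and with the covariate, Prdx3 changed by -0.53, -0.55 and -0.52 (log2). In the same order Hmox2 changed by -0.355, -0.395 and -0.356, and Lrp2 by -1.91, -1.76 and -1.98. The changes of the other genes named shrank in both settings, to different degrees. In glutathione metabolism 2 of 18 rose and 3 fell. Gsta4, a glutathione transferase that clears the lipid peroxidation product 4-hydroxynonenal, averaged 10.16 in knockout and 8.46 in control (3.23-fold, adjusted p = 0.0042). Its change was 1.69 (log2) on all arrays, 1.28 with knockout replicates 1 and 2 left out together and 1.33 with the fibroblast covariate. Gstp1, a pi-class transferase, averaged 11.71 in knockout and 12.53 in control (1.77-fold lower, adjusted p = 0.0064). Mgst1, a microsomal transferase (1.66-fold lower), and the mitochondrial glutaredoxin gene Glrx2 (1.40-fold lower) missed the threshold in 7 and 8 of the 9 fits without 1 array, at an adjusted p of up to 0.13 each. With knockout replicates 1 and 2 left out together the change of Glrx2 was -0.19 (log2, adjusted p = 0.28), and -0.15 with the fibroblast covariate (0.45), against -0.48 on all arrays.

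Some genes of peroxide removal and haem breakdown fell in knockout cells, where 8.77% of all genes were lower. Cat, which splits hydrogen peroxide, was the 1 of 5 genes called in the superoxide and catalase list. It read 10.78, 10.66 and 11.37 in knockout arrays and 11.99, 11.90 and 12.12 in control arrays (2.09-fold lower, adjusted p = 0.0073). The change of Cat was -1.065 (log2) on all arrays and -0.63 with knockout replicates 1 and 2 left out together. With the fibroblast covariate it was -0.61 (adjusted p = 0.057). Of 13 thioredoxin and peroxiredoxin genes 0 rose and 2 fell, or 15.4% called, close to the 14.1% of all genes. They were the mitochondrial peroxiredoxin gene Prdx3 (1.44-fold lower) and the methionine sulfoxide reductase gene Msra (1.58-fold lower), which missed the threshold in 6 and 8 of the 9 fits (adjusted p up to 0.12 and 0.15). The change of Msra was -0.18 (log2, adjusted p = 0.38) with knockout replicates 1 and 2 left out together and -0.16 (0.60) with the fibroblast covariate, against -0.66 on all arrays. In the list of haem breakdown and ferritin 2 of 8 fell and 0 rose. Blvra, a biliverdin reductase downstream of haem oxygenase, averaged 9.00 in knockout and 10.07 in control (2.11-fold lower, adjusted p = 0.0011). Hmox2, the constitutive haem oxygenase, fell 1.28-fold and missed the threshold in 5 of the 9 fits (adjusted p up to 0.12).

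NRF2 regulators and further targets split, with 4 of 18 higher and 4 lower, or 44.4% called beside 14.1% of all genes. The list mixes NRF2 targets with genes that restrain NRF2 or a target, so these counts give no direction for NRF2 activity. Lower were Blvrb, Bach1, Pgd and Keap1, the last an adaptor that targets NRF2 for degradation. Higher were Ephx1, Abcc4, Maff and Abcc1. Of the 9 fits that left out 1 array, Maff and Abcc1 stayed called in 1 each, Abcc4 in 6 and Ephx1 in all. Keap1 and Pgd did so in 7 each, and Blvrb and Bach1 in all. Ephx1, an epoxide hydrolase, averaged 7.32 in knockout and 4.64 in control, and since the control level is in the dimmest 40% of genes the rise is at least 6.41-fold (adjusted p = 0.0011). That size rests in part on knockout replicates 1 and 2: the change was 2.68 (log2) on all arrays, 2.00 without both of them (adjusted p = 0.0034) and 1.93 with the fibroblast covariate (0.0033). Blvrb, a flavin and biliverdin reductase, averaged 7.81 in knockout and 9.06 in control (2.37-fold lower, adjusted p = 0.0027). Bach1, a haem-sensing repressor of Hmox1, averaged 11.30 in knockout and 12.05 in control (1.68-fold lower, adjusted p = 0.0068). Pgd, of the pentose phosphate pathway, fell 1.41-fold (adjusted p = 0.013) and missed the threshold in 2 of the 9 fits (adjusted p up to 0.059).

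Phospholipid remodelling had 2 of 16 higher and 0 lower, or 12.5% called, below the 14.1% of all genes. Mboat1 and Mboat2 encode lysophospholipid acyltransferases that place monounsaturated fatty acids. Mboat1 averaged 9.48 in knockout and 7.15 in control (5.02-fold, adjusted p = 6.4e-04). Mboat2 averaged 9.37 in knockout and 7.55 in control (3.55-fold, adjusted p = 0.021), and missed the threshold in 2 of the 9 fits (adjusted p up to 0.080). With knockout replicates 1 and 2 left out together the rises were 1.95 for Mboat1 (log2, adjusted p = 0.0056) and 2.45 for Mboat2 (adjusted p = 0.031). Both missed it when probe sets ending in _x_at, _s_at or _a_at were left out, at 1.42 for Mboat1 (adjusted p = 0.064) and 0.61 for Mboat2 (0.051).

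The list of genes around ubiquinone and other defences independent of GPX4 had 4 of 13 lower and 0 higher. Selenoprotein synthesis had 4 of 12 lower and 0 higher, where 8.77% of all genes were lower. Coq8a, an atypical kinase needed for ubiquinone synthesis, averaged 6.88 in knockout and 8.51 in control (3.09-fold lower, adjusted p = 0.0030). Coq7, a hydroxylase of the same pathway, fell 1.60-fold, and Coq9, its partner, 1.71-fold. They missed the threshold in 2 and 7 of the 9 fits (adjusted p up to 0.060 and 0.15). Dhcr7, which converts 7-dehydrocholesterol to cholesterol, fell 1.86-fold (adjusted p = 0.0061), and its fall is not read as the fall of a defence. Eefsec, the elongation factor for selenocysteine, averaged 7.02 in knockout and 8.26 in control (2.36-fold lower, adjusted p = 0.0080). Its change was -1.24 (log2) on all arrays and -0.81 with knockout replicates 1 and 2 left out together. With the fibroblast covariate it was -0.68 (adjusted p = 0.062). The selenocysteine lyase gene Scly fell 1.84-fold and passed in all 9 fits, but not with the covariate (adjusted p = 0.091). Its change was -0.88 (log2) on all arrays, -0.58 with knockout replicates 1 and 2 left out together and -0.50 with the covariate. The selenophosphate synthetase gene Sephs2 fell 1.78-fold and the endocytic receptor gene Lrp2 3.76-fold. These missed the threshold in 2 and 5 of the 9 fits (adjusted p up to 0.067 and 0.084), and with the covariate (0.17 and 0.097). In the stress response list around cystine import 1 of 9 rose, or 11.1% called, below the 14.1% of all genes. It was the transcription factor gene Atf3 (2.44-fold, adjusted p = 0.011).

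Between rescue and knockout 4 of the 112 genes were higher and 3 lower, or 6.25% called beside 2.31% of all genes. Without the dimmest 40% of genes, 409 of 10916 were called. Each of the 7 list genes was also called, with the opposite sign, between knockout and control, a comparison that uses the same knockout arrays. Higher in rescue were Cat, which averaged 11.87 in rescue and 10.94 in knockout (adjusted p = 0.040), Bach1 (adjusted p = 0.048), Coq7 (adjusted p = 0.048) and Blvra (adjusted p = 0.035). Lower were Mboat1, which averaged 8.17 in rescue and 9.48 in knockout (adjusted p = 0.020), Gsta4 (adjusted p = 0.035) and Ephx1 (adjusted p = 0.016). None of the 7 passed in all 9 fits without 1 array, and their adjusted p reached between 0.066 and 0.14. With the fibroblast covariate 3 of the 7 passed, Coq7, Mboat1 and Ephx1. Cat (adjusted p = 0.055), Blvra (0.051), Bach1 (0.058) and Gsta4 (0.073) missed the threshold under that covariate. Between rescue and control 0 of the 112 passed limma's adjusted threshold. At an unadjusted p under 0.05, a level whose share of all genes was not counted, 5 were higher and 7 lower.

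**Figure D4:**
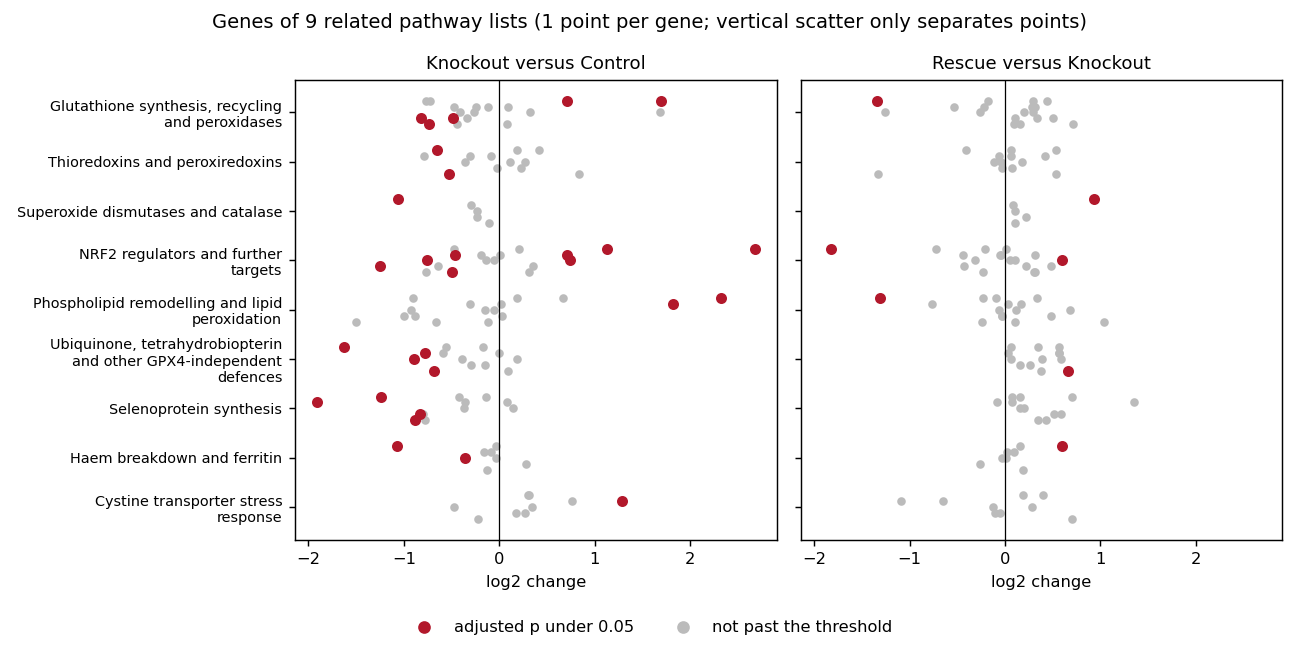
Log2 changes (horizontal axis) of 112 genes in 9 related lists (rows), with 1 point per gene, for knockout versus control and rescue versus knockout; red points passed an adjusted p of 0.05. Between knockout and control 9 points lie to the right and 20 to the left among those called, and between rescue and knockout 4 and 3.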

How the data were processed

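RNA of intestinal epithelial cells was measured on 9 arrays, 3 per genotype. Per the labels' protocols, cells were released from small intestine and proximal colon with 2 mM EDTA for 30 min and passed through a 70 µm mesh. The authors deposited RMA values on the log2 scale for every probe set; the submitters' processing notes name RMA and Partek 6.5 without their roles. The 45101 probe sets had no missing values, column medians were 5.93 to 6.00, and 0 of 36 pairs of arrays were identical. Precision is set by the number of arrays, and the median SE of a change was 0.147.

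Values were used as deposited. Probe sets were named from GEO's platform annotation. Group means of all 9 arrays were fitted together with limma 3.58.1 in R 4.3.3 (lmFit, eBayes), with two-sided tests and Benjamini-Hochberg adjustment over 18193 genes. Folds whose lower mean fell among the dimmest 40% of genes are written as lower bounds. The genes named are the 10 members, Tfrc, the up to 4 called genes of each list with the smallest p, and the 3 closest profiles of each called member. Members and lists were chosen with earlier results of these data known. The gene test was tested on simulated data with independent arrays and the same spread in each group. The real groups differed, with a median gene SD of 0.14 in rescue, 0.225 in knockout and 0.104 in control. The simulation does not cover that difference. Same-numbered arrays deviated together, with r over 0.1, in 2 of 9 pairs between groups, so replicate numbers were not used as pairs. Alternatives covered probe choice, normalization, variance model, dim genes, covariate, block and left-out arrays.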

Additional observations from a re-analysis of the deposited data

How the results depend on the processing

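Gpx2, Aifm2 and Nqo1 kept their direction between knockout and control in all 60 alternative fits of these 3 changes, and 19 of the 60 missed the threshold. The fibroblast covariate left 0 genes of the 10 higher and 0 lower (Gpx2 1.54, Aifm2 -0.75 and Nqo1 -1.26). Array weights left 2 higher and 3 lower, and both left-out knockout replicates together, an alternative chosen after seeing the data, 0 higher and 1 lower. The replicate block left 0 higher, because Gpx2 missed at 1.33, and changed no other call of the 10 genes. Numbers of the labels did not pair the arrays. Array weights also called 1 gene higher and 2 lower between rescue and knockout and 1 lower (Nqo1 -1.44) between rescue and control, and without the dimmest 40% of genes 1 was lower (Gpx2) between rescue and knockout. Leaving out 1 array gave 0 to 2 higher and 0 to 2 lower between knockout and control, 0 to 1 higher and 0 to 2 lower between rescue and knockout, and 0 of either between rescue and control.

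Counts over all genes moved as follows. Against 2559 between knockout and control, array weights gave 6395, the 2 groups alone 1655, and fits without 1 array 936 to 4998. Against 420 between rescue and knockout, array weights gave 2453, the covariate 925, the replicate block 257, the 2 groups alone 30, both left-out knockout replicates 1096, and fits without 1 array 105 to 2793. Against 23 between rescue and control these were 355, 108, 12, 149 and 149, with 14 under the trended robust model and 2 to 136 without 1 array. Of the list genes 5 to 10 were higher and 9 to 31 lower between knockout and control without 1 array, and 16 and 37 with array weights. Between rescue and knockout the list genes ranged over 0 to 12 higher and 0 to 8 lower without 1 array, and between rescue and control over 0 to 2 higher in fits without 1 array and 0 to 5 lower in the other alternatives.

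Sign changes fell on changes that had not passed. Under the covariate the changes between knockout and control were Gpx4 0.23, Acsl4 -0.37 and Lpcat3 0.50, those between rescue and knockout Gpx4 -0.15 and Acsl4 0.20, and those between rescue and control Gpx4 0.080, Acsl4 -0.18 and Lpcat3 0.075. With both knockout replicates left out they were Gpx4 0.16, Acsl4 -0.079, Lpcat3 0.51, Hmox1 0.17 and Gclm 0.025 between knockout and control, and Gpx4 -0.17, Acsl4 0.35, Hmox1 -0.048, Nqo1 0.048, Gclc -0.074 and Gclm -0.24 between rescue and knockout. Array weights turned Slc7a11 to -0.048 between knockout and control, Slc7a11 to 0.14 and Lpcat3 to 0.15 between rescue and knockout, and Gpx4 to 0.010 between rescue and control. Quantile normalization turned Lpcat3 to 0.056 between knockout and control, median centring Slc7a11 to 0.033 and Lpcat3 to 0.00017 between rescue and knockout, and averaged probe sets Slc7a11 to 0.044 there and Gpx4 to 0.041 between rescue and control. Without 1 array, the ranges that crossed 0 were, between knockout and control, -0.20 to 0.049 for Gpx4 and -0.26 to 0.15 for Lpcat3. Between rescue and knockout they were -0.053 to 0.20 for Gpx4, -0.14 to 0.071 for Slc7a11, -0.21 to 0.20 for Lpcat3, -0.38 to 0.24 for Nqo1 and -0.40 to 1.03 for Gclc. Between rescue and control they were -0.095 to 0.054 for Gpx4, -0.15 to 0.047 for Lpcat3, -0.93 to 1.21 for Hmox1 and -1.03 to 0.40 for Gclc. The cause was not tested.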

Other observations

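Of the list genes called between knockout and control, those outside the naming rule were looked at after their values were seen. Chac1, which degrades glutathione, averaged 6.86 in knockout and 6.15 in control, Maff, a small MAF protein gene, 8.93 and 8.18, and the export pump genes Abcc1 and Abcc4 averaged 7.41 and 7.34 in knockout, against 6.28 and 6.63 in control. Keap1, the adaptor that targets NRF2 for degradation, averaged 8.74 in knockout and 9.20 in control. Of these, Keap1 missed the threshold in 2 of the 9 limma fits without 1 array, Abcc4 in 3, Chac1 in 5, and Maff and Abcc1 in 8 each, at an adjusted p of up to 0.083, 0.070, 0.15, 0.16 and 0.13. The change of Abcc1 was 0.34 (log2, adjusted p = 0.27) with knockout replicates 1 and 2, the fibroblast-rich arrays, left out together and 0.24 (0.48) with the fibroblast covariate, against 1.13 on all arrays.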
